A study of Mus musculus with 6 samples.

Results

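Transcripts of Pparg and of 9 genes of lipid storage and fatty acid oxidation were compared between regulatory T (Treg) cells of the liver and of the spleen in 12-day-old mice. The 10 genes are Pparg, Dgat1, Dgat2, Fabp5, Cpt1a, Acadl, Acadm, Plin2, Acsl4 and Acsl5. They were taken by gene symbol from a count table of 23366 genes, and all 10 were among the 11716 genes that passed the filter on low counts. The series holds 3 liver and 3 spleen libraries of CD4+GFP+ cells sorted by flow cytometry from Foxp3GFP knock-in mice, in which green fluorescent protein marks cells that express the Treg transcription factor Foxp3. All 6 libraries carry the same knock-in allele, and no treatment is given in the labels. The labels do not say how many animals stand behind a library or whether the liver and spleen cells came from the same animals, so p-values measure the spread between these libraries, which may be technical in part.

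Pparg encodes PPAR-gamma, a nuclear receptor that binds fatty acids and their derivatives, pairs with the retinoid X receptors and turns on genes of fatty acid uptake, binding and storage. In Treg cells it is best known from visceral fat of adult mice, where it marks the resident population. Fatty acids that enter a cell are bound by FABP proteins and joined to coenzyme A by acyl-CoA synthetases of the ACSL family. The products are then either stored as triglyceride, by DGAT enzymes and in droplets coated by perilipins, or carried by CPT1 into mitochondria, where acyl-CoA dehydrogenases begin beta oxidation.

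Promoter sequences are shown first for 4 of the 5 genes that differed between the tissues, Pparg, Plin2, Acadl and Acsl5, because PPAR-gamma acts through DNA and several of these genes are known PPAR targets in other cells. RefSeq promoter windows (GRCm38.p6), each 250 bases before to 50 bases after a transcript start, were matched by symbol for 7 of the 10 genes; Dgat1, Dgat2 and Fabp5 were not matched. Pparg has 3 windows, and gene counts do not tell which start a read came from. Capitals mark AGGTCA, the core motif that many nuclear receptors bind, read on either strand, so that TGACCT is the same motif on the other strand. Acadm is set beside its relative Acadl.
Pparg window 1, chr6:115360894-115361193, + strand: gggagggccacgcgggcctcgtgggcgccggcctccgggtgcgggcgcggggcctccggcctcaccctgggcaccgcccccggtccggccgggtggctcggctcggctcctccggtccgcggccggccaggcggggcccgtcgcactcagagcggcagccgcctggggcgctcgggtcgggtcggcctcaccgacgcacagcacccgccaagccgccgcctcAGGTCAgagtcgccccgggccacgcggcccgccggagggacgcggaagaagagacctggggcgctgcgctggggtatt
Pparg window 2, chr6:115362099-115362398, + strand: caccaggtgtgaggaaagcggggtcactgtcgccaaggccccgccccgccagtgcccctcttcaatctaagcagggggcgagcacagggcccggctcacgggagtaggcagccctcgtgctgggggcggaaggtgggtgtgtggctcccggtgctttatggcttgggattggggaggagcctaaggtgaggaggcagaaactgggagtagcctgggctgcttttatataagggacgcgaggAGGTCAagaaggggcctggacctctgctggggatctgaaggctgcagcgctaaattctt
Pparg window 3, chr6:115421816-115422115, + strand: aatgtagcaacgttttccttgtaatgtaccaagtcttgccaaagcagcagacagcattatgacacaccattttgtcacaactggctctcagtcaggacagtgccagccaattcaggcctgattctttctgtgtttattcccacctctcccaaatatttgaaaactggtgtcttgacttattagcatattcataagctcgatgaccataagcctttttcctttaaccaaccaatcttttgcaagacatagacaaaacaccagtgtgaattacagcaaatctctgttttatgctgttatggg
Plin2, chr4:86670010-86670309, - strand: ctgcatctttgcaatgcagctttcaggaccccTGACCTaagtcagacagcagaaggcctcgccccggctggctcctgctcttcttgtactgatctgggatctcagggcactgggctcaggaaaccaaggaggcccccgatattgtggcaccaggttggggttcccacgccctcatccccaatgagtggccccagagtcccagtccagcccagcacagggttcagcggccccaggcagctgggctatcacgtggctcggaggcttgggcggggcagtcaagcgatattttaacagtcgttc
Acadl, chr1:66863260-66863559, - strand: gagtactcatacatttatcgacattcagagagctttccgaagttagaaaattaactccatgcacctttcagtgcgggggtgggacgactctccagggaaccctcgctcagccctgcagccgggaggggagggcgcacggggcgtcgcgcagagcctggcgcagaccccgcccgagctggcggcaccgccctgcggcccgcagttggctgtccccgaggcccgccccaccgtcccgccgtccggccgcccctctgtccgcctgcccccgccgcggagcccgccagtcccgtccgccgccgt
Acadm, chr3:153944594-153944893, - strand: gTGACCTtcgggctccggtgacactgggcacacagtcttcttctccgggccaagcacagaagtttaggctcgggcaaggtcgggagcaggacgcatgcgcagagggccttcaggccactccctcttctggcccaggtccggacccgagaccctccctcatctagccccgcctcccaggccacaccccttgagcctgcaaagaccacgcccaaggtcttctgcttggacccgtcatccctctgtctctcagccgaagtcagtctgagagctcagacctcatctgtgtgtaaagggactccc
Acsl5, chr19:55253119-55253418, + strand: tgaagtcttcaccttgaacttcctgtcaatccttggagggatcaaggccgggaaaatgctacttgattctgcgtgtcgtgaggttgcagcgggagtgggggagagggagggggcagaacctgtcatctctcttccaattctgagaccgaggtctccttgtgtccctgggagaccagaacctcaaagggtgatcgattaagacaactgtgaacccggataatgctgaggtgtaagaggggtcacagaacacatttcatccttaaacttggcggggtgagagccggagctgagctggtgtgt

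The core motif AGGTCA, searched on both strands, was present in 5 of the 9 windows of these genes, against 16.3% of 32851 mouse promoter windows of the same length. The windows with the motif belong to 4 of the 7 genes, because Pparg windows 1 and 2 both hold it. So few chosen genes cannot show an enrichment. The motif starts 28 bases before the transcript start in Pparg window 1 and 9 bases before it in Pparg window 2. In Plin2 it starts 218 bases before, in Acadm 249 and in Cpt1a, whose window is not printed, 94. The windows of Acadl, Acsl5 and Acsl4 and Pparg window 3 do not hold these letters. The full PPAR element is a direct repeat of the core motif (AGGTCA, any 1 base, AGGTCA, on either strand), and so contains it. Its exact letters were in 0 of the 9 windows and in 13 of the 32851. Variants of these letters and sites outside the windows were not searched. With letters this rare, 0 of 9 does not show that a gene lacks a PPAR element. The windows hold the core motif both for genes that were higher in liver and for genes that did not pass the test.

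The libraries differ in ways that bear on these genes. Counts in genes were between 8437055 and 10951720 for liver, against 1199410, 11408960 and 11358446 in spleen 1, spleen 2 and spleen 3, so spleen 1 is the shallowest. A floor of 3 counts is 2.58 CPM (counts scaled to a common library total) in spleen 1 and 0.256 to 0.361 CPM elsewhere. The libraries also differ in sex-linked transcripts: liver 1 and spleen 1 held Xist without Ddx3y, liver 2 and spleen 2 held Ddx3y with Xist at or below 0.171 CPM, and liver 3 and spleen 3 held both. Spleen 1 is thus the shallow library and the spleen library with Xist alone. Its summed granulocyte markers were also the highest, at 791 CPM against 469 CPM in spleen 2 and 586 CPM in spleen 3. The same held for its summed erythroid markers, at 236 CPM against 157 and 149 CPM. These properties of spleen 1 cannot be told apart. The cells carried the markers of their sort, with Foxp3 between 1198 and 1304 CPM in liver, compared with between 1103 and 1218 CPM in spleen. Of the 6 Treg markers listed, all were tested; Ctla4 (log2 fold change 0.89) and Ikzf2 (0.35) were higher in liver and Il2ra (-0.60) in spleen, with edgeR adjusted p of 5e-05, 0.0241 and 0.000171.

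Liver exceeded spleen for 5 of the 10 genes, spleen exceeded liver for 0, and 5 did not pass the test (edgeR's quasi-likelihood test, adjusted p under 0.05). The 5 were Pparg, the triglyceride synthesis gene Dgat1, the droplet coat gene Plin2, the beta oxidation gene Acadl and the acyl-CoA synthetase gene Acsl5. Over all 11716 tested genes the share higher in liver was 9.28% and that higher in spleen 6.90%. For 4 of the 10 genes no liver library overlapped the spleen range, beside 32.9% of all tested genes. The median log2 fold change, liver minus spleen, was 0.22 over the 10 genes and -0.01 over all tested genes. The 10 genes were chosen with earlier results of these data known, so these comparisons with all tested genes cannot show an enrichment. DESeq2 placed 4 of the 10 higher in liver and 0 in spleen, and at an unadjusted p under 0.05 edgeR again gave 5 and 0. The count was 2 without spleen 3, 3 without spleen 2 and 5 without the shallow spleen 1.

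**Figure D1:**
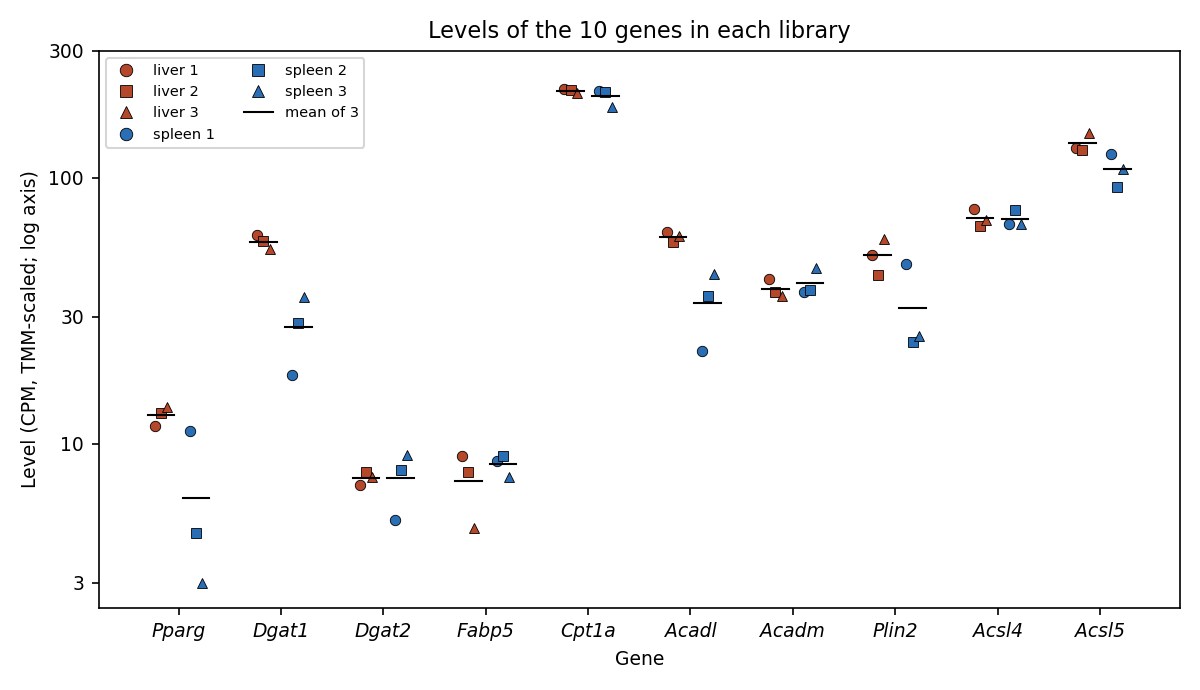
Level of each of the 10 genes in each of the 6 libraries, in CPM scaled by TMM on a log axis; colours separate liver and spleen, symbols the libraries, and bars are means of 3. Dgat1 and Acadl separate the tissues, with their lowest values in spleen 1, while Pparg and Plin2 in spleen 1 lie close to the liver libraries.

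Pparg, the receptor itself, stood at 11.7, 13.02 and 13.7 CPM in the liver libraries and at 11.2, 4.63 and 2.99 CPM in spleen 1, spleen 2 and spleen 3. The liver libraries lie close together, spleen 2 and spleen 3 lie well below them, and spleen 1 comes just under the lowest liver library, so the tissues do not overlap by a narrow margin. The mean was 12.8 ± 1.04 CPM in liver, compared with 6.27 ± 4.34 CPM in spleen (SD, n = 3 libraries each), and the log2 fold change was 1.46 ± 0.35 (SE), with an edgeR adjusted p of 0.00681. The fitted fold of 2.75 exceeds the ratio of these means because the fit gives the 13 reads of spleen 1 less weight than the deeper libraries. Those 13 reads correspond to an exact Poisson interval of 5.96 to 19.1 CPM (95%, counting error only), against 3.48 to 6.04 CPM in spleen 2 and 2.08 to 4.16 CPM in spleen 3.

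The Pparg difference rests on spleen 2 and spleen 3. Without spleen 1 the log2 fold change was 1.75 (edgeR adjusted p = 0.000401), and without spleen 3 it was 1.07 and no longer passed (edgeR adjusted p = 0.0664). Between libraries with the same sex-linked transcripts, liver over spleen was 1.04-fold for those with Xist alone, 2.81-fold for those with Ddx3y alone and 4.58-fold for those with both. With a block on these transcripts, added after the data were seen, the log2 fold change was 1.43 (edgeR adjusted p = 0.00661). Thinned at random to the depth of spleen 1, the libraries gave 0.69 for Pparg (edgeR adjusted p = 0.374). How far this value varies between random draws was not tested.

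Pparg is also expressed by macrophages. Of the 13 macrophage markers listed, 9 were tested and all 9 were higher in spleen, with a summed level between 65.3 and 72.9 CPM in liver, compared with between 116 and 183 CPM in spleen; Lyz2, the most abundant, was between 57.4 and 64.0 CPM in liver, compared with between 68.9 and 118 CPM in spleen. Vsig4 was at 0 in all 6 libraries, and Spic and Mrc1 at 0 in the 3 liver libraries. The 9 tested markers were thus lower in liver, where Pparg was higher. Lyz2 made up most of the sum, with 57.4 of 65.3 CPM in liver 3 and 118 of 162 CPM in spleen 1. Among the spleen libraries the summed level was 162 CPM in spleen 1, 116 CPM in spleen 2 and 183 CPM in spleen 3. This order differs from that of Pparg, but single markers did not all follow it. C1qa was at 5.16, 6.08 and 9.66 CPM in spleen 1, spleen 2 and spleen 3. What macrophages contributed to the Pparg difference was not tested.

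Plin2 encodes perilipin 2, the droplet coat protein of most cell types and a known PPAR target. Its level was 51.3, 43.0 and 59.0 CPM in liver, compared with 47.3, 24.1 and 25.4 CPM in spleen. As for Pparg, spleen 1 lies at the liver level and spleen 2 and spleen 3 at about the same lower level; spleen 1 is above liver 2, so the tissues overlap. The means were 51.1 ± 7.995 and 32.3 ± 13.1 CPM (SD, n = 3 each), and the fitted log2 fold change was 0.85 ± 0.20 (SE, edgeR adjusted p = 0.00685).

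The 55 Plin2 reads of spleen 1 give an exact Poisson interval of 35.7 to 61.6 CPM, which lies above those of spleen 2 (21.4 to 27.1 CPM) and spleen 3 (22.6 to 28.4 CPM). The counting intervals of spleen 1 and the other spleen libraries thus do not overlap for this gene. Liver over spleen was 1.08-fold between the libraries with Xist alone, 1.79-fold with Ddx3y alone and 2.32-fold with both. Without spleen 1 the log2 fold change was 1.05 (edgeR adjusted p = 0.000191); it did not pass without spleen 2 (0.67, edgeR adjusted p = 0.0770) or without spleen 3 (0.71, edgeR adjusted p = 0.0504).

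Dgat1 and Dgat2 encode unrelated enzymes that catalyse the same last step of triglyceride synthesis, the joining of a fatty acid to diacylglycerol. Dgat1 was at 61.0, 57.6 and 54.1 CPM in liver, compared with 18.1, 28.4 and 35.6 CPM in spleen, with every liver library above every spleen library. Its means were 57.6 ± 3.44 and 27.4 ± 8.83 CPM (SD, n = 3 each), and its log2 fold change of 0.95 ± 0.17 (SE, edgeR adjusted p = 0.000581) had the smallest p of the 10 genes. Dgat2 was at 6.97, 7.80 and 7.50 CPM in liver, compared with 5.16, 7.97 and 9.06 CPM in spleen, and the tissues overlap. Its log2 fold change was -0.11, with a 95% interval from -0.70 to 0.49 (edgeR adjusted p = 0.855).

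The balance of the DGAT genes can be read within a library, where scaling does not enter. Dgat1 took 89.7%, 88.1% and 87.8% of the reads of Dgat1 and Dgat2 together in the liver libraries, against 77.8%, 78.1% and 79.7% in spleen 1, spleen 2 and spleen 3. The groups do not overlap, and the mean share was 88.5% ± 1.04 in liver and 78.5% ± 1.05 in spleen (SD, n = 3 each; exact two-sided permutation p = 0.1, the smallest that 3 against 3 allows). The exact binomial interval of spleen 1, with 27 reads, ran from 57.7% to 91.4% and so includes the liver values, while those of spleen 2 (73.8% to 81.9%) and spleen 3 (76.0% to 83.1%) lie below all liver intervals, which start at 85.1%. Dgat1 kept its call without each library in turn, with log2 fold changes between 0.85 and 1.18.

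**Figure D2:**
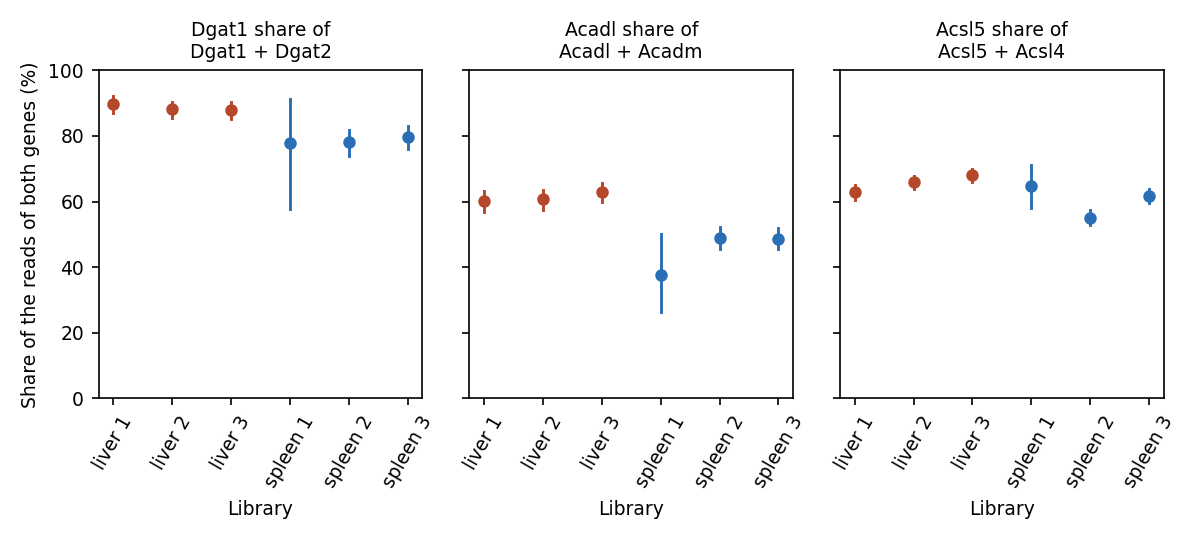
Share of the reads of 2 related genes that came from the first of them, in percent, in each library, with exact binomial 95% intervals (counting error only); liver and spleen are coloured apart. The Dgat1 share is 87.8% to 89.7% in liver and 77.8% to 79.7% in spleen, the Acadl share is 60.02% to 62.8% in liver and 37.7% to 48.8% in spleen, and the Acsl5 shares of the tissues overlap.

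Among the acyl-CoA dehydrogenases, Acadl, which encodes the long-chain enzyme, was higher in liver. Acadl was at 62.3, 57.3 and 60.4 CPM in liver, compared with 22.4, 35.9 and 43.4 CPM in spleen, and the tissues do not overlap. Its log2 fold change was 0.71 ± 0.16 (SE, edgeR adjusted p = 0.00489), and it kept its call without each library in turn, between 0.60 and 0.92. Acadm, which encodes the medium-chain enzyme, was at 41.5, 37.2 and 35.8 CPM in liver, compared with 37.0, 37.7 and 45.7 CPM in spleen. The Acadm values of the tissues interleave, and the log2 fold change was -0.10 with a 95% interval from -0.41 to 0.21 (edgeR adjusted p = 0.718).

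Acadl took 60.02%, 60.6% and 62.8% of the reads of Acadl and Acadm together in liver and 37.7%, 48.8% and 48.7% in spleen. The intervals of the spleen libraries end at 52.2% or below and those of the liver libraries start at 56.7% or above, and the exact two-sided permutation p was again 0.1, the smallest possible. Dgat1 and Acadl were both lowest in spleen 1, and their liver over spleen folds were largest between the libraries with Xist alone, at 3.37 for Dgat1 and 2.78 for Acadl. Between the libraries with Ddx3y alone these folds were 2.03 and 1.60, and between those with both transcripts 1.52 and 1.39. Pparg and Plin2 showed the opposite order of the same libraries; the difference between these orders was not tested.

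Acsl5 and Acsl4 encode acyl-CoA synthetases, of which ACSL4 prefers arachidonic acid. Acsl5 was at 129, 127 and 147 CPM in liver, compared with 123, 92.3 and 108 CPM in spleen; every liver library lies above every spleen library, but spleen 1 comes within a few CPM of liver 2. Its log2 fold change was 0.35 ± 0.11 (SE, edgeR adjusted p = 0.0397), the smallest change of the genes that passed. The call was lost without any library other than spleen 1 (edgeR adjusted p = 0.0687 to 0.309), with upper-quartile scaling (0.0677, edgeR adjusted p), with DESeq2 (0.0592, DESeq2 adjusted p) and at equal depth (0.115, edgeR adjusted p). Another gene, Zdhhc6 on the opposite strand, overlaps 3.94% of the exon bases of Acsl5, and the strand setting of the counting is not given in the sources used here.

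Acsl4 was at 76.1, 65.9 and 69.4 CPM in liver, compared with 67.1, 75.3 and 67.1 CPM in spleen, with a log2 fold change of 0.00 and a 95% interval from -0.25 to 0.25 (edgeR adjusted p = 0.997). Acsl5 took 62.85%, 65.9% and 68.0% of the reads of both genes in liver and 64.7%, 55.1% and 61.7% in spleen. These shares overlap between the tissues (exact two-sided permutation p = 0.2, where 0.1 is the smallest possible).

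Cpt1a encodes the liver-type carnitine palmitoyltransferase of the outer mitochondrial membrane, the rate-limiting entry of long-chain fatty acids into mitochondria. It was the most abundant of the 10 genes and close to equal in the tissues, at 216, 213 and 208 CPM in liver, compared with 212, 210 and 185 CPM in spleen. The values overlap, and the log2 fold change was 0.08 with a 95% interval from -0.11 to 0.28 (edgeR adjusted p = 0.621), so a change beyond 0.28 on the log2 scale lies outside the interval.

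Fabp5 encodes the epidermal-type fatty acid binding protein, a carrier of fatty acids in the cytosol that T cells express. It was at 9.02, 7.80 and 4.82 CPM in liver, compared with 8.61, 8.997 and 7.52 CPM in spleen, with liver 3 the lowest library. The log2 fold change was -0.21 with a 95% interval from -0.86 to 0.43 (edgeR adjusted p = 0.705). Its level is uncertain, because 21.1% of the 50-base windows of its GENCODE M21 transcript also occur in transcripts of 5 other genes, so that reads from those stretches cannot be placed by sequence alone. For the other 9 genes this share was between 0 and 5.53%.

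**Figure D3:**
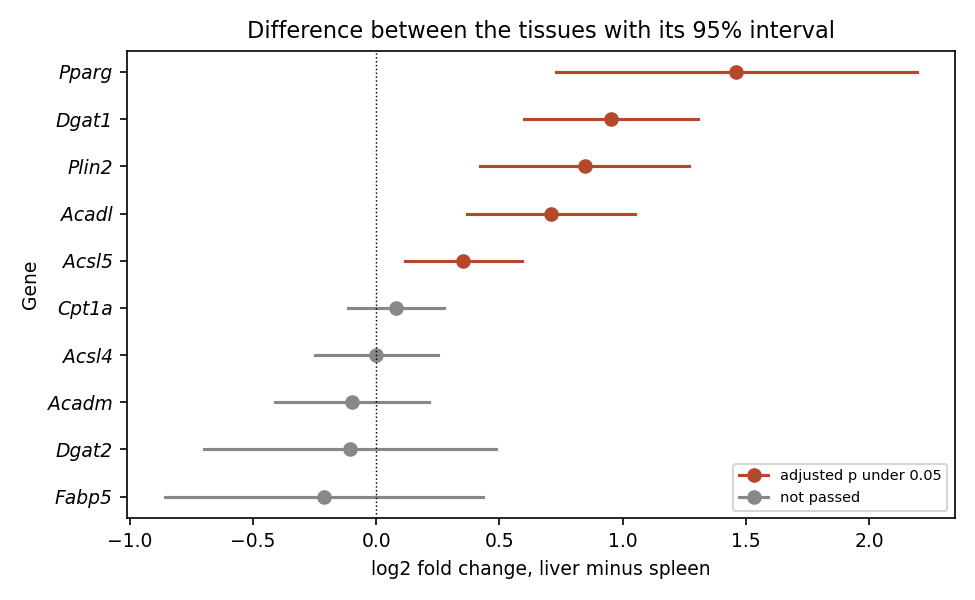
log2 fold change of each of the 10 genes, liver minus spleen, with its 95% interval from the edgeR fit over all 6 libraries; coloured points passed at an adjusted p under 0.05. Pparg has the largest value, 1.46, and the widest interval of the genes that passed, 0.73 to 2.19, and the 5 genes that did not pass lie between -0.21 and 0.08.

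Levels of different genes were compared per length, as CPM divided by kilobases of merged exons. On this scale Cpt1a was highest in both tissues, at 49.2 ± 0.933 in liver and 46.8 ± 3.50 in spleen (SD, n = 3 each), above every library of the next gene. In liver Acsl5 (31.7), Acadl (31.3), Dgat1 (30.5) and Plin2 (27.1) followed, and each neighbour in this order overlapped the next. Acadm (18.7), Acsl4 (13.2) and Fabp5 (7.31) came next, each separate from the gene above it, followed by Pparg (5.38), which overlapped Fabp5, and Dgat2 (3.28).

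In spleen the order was Acsl5 (25.4), Acadm (19.6), Acadl (17.7), Plin2 (17.1), Dgat1 (14.5) and Acsl4 (13.1), all overlapping their neighbours, then Fabp5 (8.49), Dgat2 (3.27) and Pparg (2.64) per kilobase. Pparg and Dgat2 overlapped in spleen and were separate in liver. Acadl thus stood clearly above Acadm in each liver library and between 11.7 and 22.7 against 18.1 to 22.3 in spleen.

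**Figure D4:**
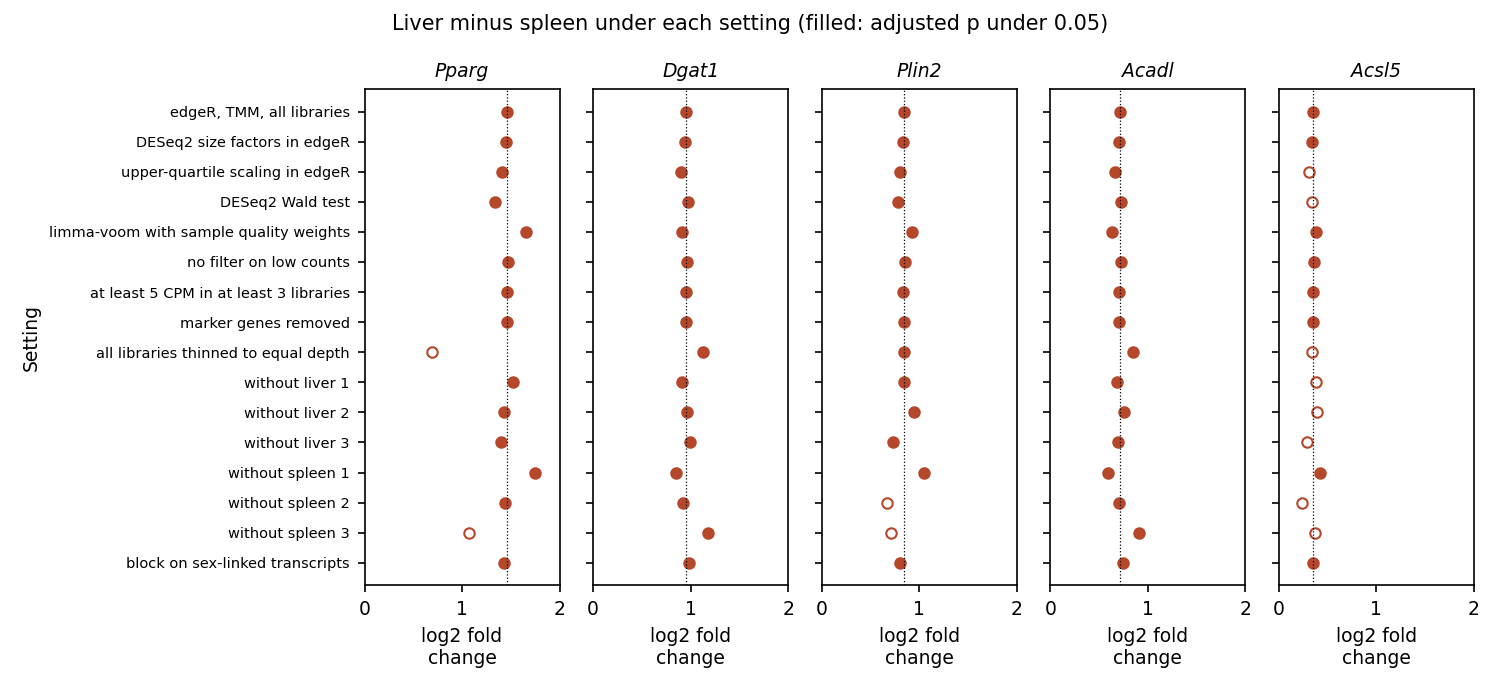
log2 fold change, liver minus spleen, of the 5 genes that were higher in liver, under each processing setting; filled points passed at an adjusted p under 0.05 and the dotted line is the value with edgeR, TMM scaling and all libraries. Dgat1 and Acadl passed under every setting shown, Pparg fell to 0.69 at equal depth and 1.07 without spleen 3, and Acsl5 passed in fewer than any other gene shown.

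Signals of other cells also moved between the tissues. Of 8 hepatocyte markers, which mark a cell type rich in Acadl, Cpt1a and Dgat2, 2 were tested, Alb and Ahsg, and both were higher in liver. The summed level of the 8 markers was between 4.68 and 16.4 CPM in the liver libraries and between 0 and 0.940 CPM in spleen, where 5 of the 8, Alb among them, were at 0. Alb was at 6.01, 2.20 and 7.32 CPM in liver 1, liver 2 and liver 3. Liver 2, the lowest in Alb, was the middle library for Dgat1 and Pparg and the lowest for Acadl, Plin2 and Acsl5. Plin2 (51.3, 43.0 and 59.0 CPM) and Acsl5 (129, 127 and 147 CPM) had the same order of the liver libraries as Alb. Markers of erythroid cells (7 of 9 listed), granulocytes (8 of 9) and B cells (3 of 6) were higher in spleen, and those of NK and CD8 T cells higher in liver in 3 of 8 cases and in spleen in 1. With all these markers left out before scaling, the same 5 of the 10 genes were called. That setting checks the scaling only, because any reads of the 10 genes that came from other cells stayed in. In bulk libraries, fewer cells that express a gene and less RNA of it per cell cannot be told apart, and the part of these cells in the results was not tested.

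Beyond the 10 genes, 8 lists covering the same pathways held 130 further genes, of which 95 were tested. Liver was higher for 7 of them, spleen for 9, and 79 did not pass (edgeR's quasi-likelihood test), so the calls went both ways, at 16 of 95 in all beside 16.2% of all tested genes. Their median log2 fold change was -0.01, the same as that of all tested genes. Without spleen 2, 2 were higher in liver against 4 in spleen; the counts were 3 and 5 without liver 2, 4 and 6 without liver 3, and 3 and 7 without spleen 3.

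Of the 14 other tested genes of PPAR receptors and partners, 1 was higher in liver and 3 in spleen, with a median log2 fold change of -0.20. Rxra, a retinoid X receptor that pairs with PPAR proteins, was at 75.0 ± 6.51 CPM in liver, compared with 57.1 ± 6.97 CPM in spleen (0.42 ± 0.13 on the log2 scale, edgeR adjusted p = 0.0340). Its call was lost without any library other than spleen 1 (edgeR adjusted p up to 0.261). Ppard, the PPAR-delta gene, went to spleen, at 24.7, 25.5 and 28.7 CPM in liver, compared with 24.96, 44.8 and 38.2 CPM in spleen (-0.54 ± 0.18, edgeR adjusted p = 0.0460). Spleen 1 stood at the liver level for Ppard too, and the call was lost in 6 of 14 planned settings or with the block on sex-linked transcripts.

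Pprc1, a coactivator related to PGC-1, was the clearest of the receptor list, at 32.1 ± 2.29 CPM in liver, compared with 71.3 ± 4.57 CPM in spleen (-1.17 ± 0.13, edgeR adjusted p = 5.79e-06). Ppara, the PPAR-alpha gene, had 1 read in the 3 liver libraries and 3 reads in the 3 spleen libraries, and Ppargc1a had 1 and 1. Both stayed at or under the floor of 3 counts in each library and were not tested.

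Of the fatty acid uptake and binding genes, 2 of 9 were higher in spleen and 0 higher in liver (edgeR; at an unadjusted p under 0.05, 2 and 1; DESeq2, 2 and 0). Cd36, a fatty acid transporter and PPAR target that macrophages and endothelial cells carry, was at 0.120, 0.275 and 1.11 CPM in liver, compared with 0.861, 5.83 and 5.47 CPM in spleen (-3.17 ± 0.65, edgeR adjusted p = 0.00222), with spleen 1 at 1 read. The endothelial marker Stab2 was also low in liver, at 0.183 to 0.842 CPM, and between 6.89 and 16.6 CPM in spleen. Of the 6 stromal and endothelial markers listed, 3 were tested, and Stab2 was the 1 that passed. Cdh5 (-0.04, edgeR adjusted p = 0.98) and Col1a1 (-0.27, edgeR adjusted p = 0.715) did not pass. What endothelial cells contributed to the Cd36 difference was not tested. Dbi, an acyl-CoA binding protein gene, was at 23.0 ± 6.73 and 15.5 ± 0.708 CPM and did not pass (0.57 ± 0.22, edgeR adjusted p = 0.0910).

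Of 7 other acyl-CoA synthetase genes, 2 were higher in liver and 1 in spleen. Acsbg1, an acyl-CoA synthetase of the bubblegum family, was at 145, 149 and 142 CPM in liver, compared with 79.2, 84.8 and 84.0 CPM in spleen (0.80 ± 0.10, edgeR adjusted p = 1.22e-05), with tight and separate groups. Acss1, which activates acetate in mitochondria, was higher in liver (log2 fold change 0.41 ± 0.11, edgeR adjusted p = 0.0178). Acsl1 was lower in liver (-0.62 ± 0.20, edgeR adjusted p = 0.0459), and its call was lost without each library other than spleen 1. Acsl3 did not pass (-0.58, edgeR adjusted p = 0.276), and Acsl6 was not tested.

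Of 13 other triglyceride synthesis genes, 1 was higher in liver and 1 in spleen, with a median log2 fold change of 0.13. Both belong to the AGPAT acyltransferase family. Agpat4 was at 42.1, 57.1 and 62.1 CPM in liver, compared with 20.7, 17.3 and 20.1 CPM in spleen (1.51 ± 0.18, edgeR adjusted p = 9.25e-06), while Agpat3 was at 198.5 ± 12.3 CPM in liver, compared with 288 ± 4.73 CPM in spleen (-0.54 ± 0.09, edgeR adjusted p = 0.000378). Both kept their calls without each library in turn. Soat2, which esterifies cholesterol, did not pass (0.83 ± 0.34, edgeR adjusted p = 0.112).

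Of 11 other droplet and lipolysis genes, 2 were higher in liver and 2 in spleen. Hilpda, a hypoxia-induced droplet protein that inhibits lipolysis, was at 15.3, 13.4 and 17.04 CPM in liver, compared with 6.89, 8.74 and 9.40 CPM in spleen (0.79 ± 0.23, edgeR adjusted p = 0.0251). Pnpla2, which encodes the first lipase of triglyceride breakdown, ATGL, was at 121, 123 and 124 CPM in liver, compared with 120, 91.9 and 84.5 CPM in spleen (0.37 ± 0.12, edgeR adjusted p = 0.0361), so spleen 1 again stood at the liver level. Hormone-sensitive lipase, encoded by Lipe (-0.61 ± 0.19, edgeR adjusted p = 0.0369), and monoglyceride lipase, encoded by Mgll (-2.72 ± 0.58, edgeR adjusted p = 0.00292), which act after ATGL, were higher in spleen. The Lipe call was lost without liver 2, liver 3, spleen 1 or spleen 2 (edgeR adjusted p = 0.0553 to 0.175), and that of Mgll was kept without each library in turn. Mgll was low, at 0.624 ± 0.438 CPM in liver, compared with 4.17 ± 0.866 CPM in spleen. In this list 0 genes were higher in liver when liver 1, spleen 2 or spleen 3 was left out (edgeR; with all libraries 3 at an unadjusted p under 0.05, and 1 with DESeq2).

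Of 21 other genes of mitochondrial fatty acid oxidation, 0 passed in either direction (edgeR; at an unadjusted p under 0.05, 3 higher in liver and 2 in spleen; DESeq2, 0 and 0; limma-voom, 1 and 2). Their log2 fold changes lay between -0.45 and 0.53, with 12 above 0 and 9 below. Hadh, the dehydrogenase of medium and short chains, had 0.38 ± 0.13 (edgeR adjusted p = 0.0645) and passed without spleen 1 (edgeR adjusted p = 0.00689), with limma-voom and with no filter, with adjusted p between 0.00451 and 0.385 over all settings. Cpt2, the inner membrane partner of CPT1, had 0.53 ± 0.20 (edgeR adjusted p = 0.0849), and Acads, the short-chain dehydrogenase, 0.32 ± 0.13 (edgeR adjusted p = 0.101). In this pathway Acadl was the gene past the test, as 1 of 24 tested with Acadm and Cpt1a counted.

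Of 14 genes of peroxisomal oxidation, 0 passed (edgeR; 0 at an unadjusted p under 0.05, and 0 by DESeq2 and limma-voom). Among those with the smallest p were Abcd2 (-1.22 ± 0.73, edgeR adjusted p = 0.296) and Acox3 (0.19 ± 0.12, edgeR adjusted p = 0.316).

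**Figure D5:**
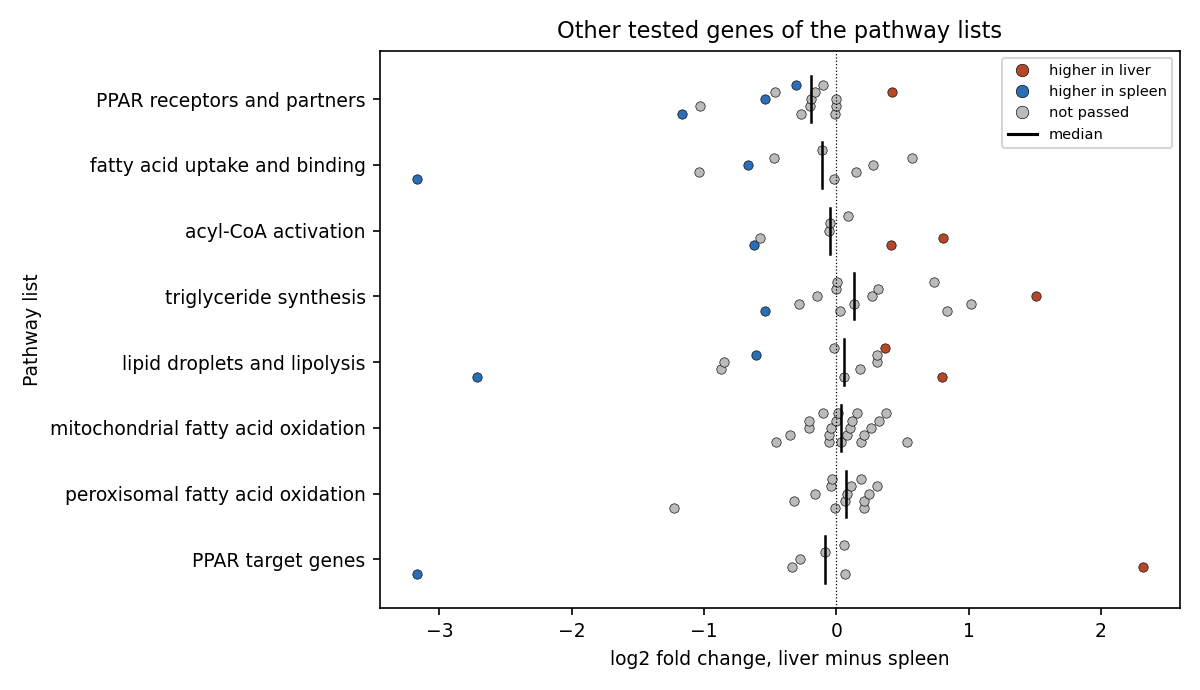
log2 fold change, liver minus spleen, of the tested genes of each pathway list other than the 10 genes; colour marks genes past an adjusted p of 0.05 in each direction, vertical offsets only separate points, and black bars are medians. A gene in 2 lists is drawn in both. Calls fall on both sides of 0 in most lists, and none falls in mitochondrial or peroxisomal oxidation.

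Of 7 other tested genes of the list of PPAR targets, 1 was higher in liver and 1, Cd36, in spleen; 9 of the list were not tested, among them Fabp4, with 1 read in liver 1 and 0 elsewhere, and Lpl, with 0 to 2 reads in each liver library and 0, 4 and 21 in spleen 1, spleen 2 and spleen 3. Angptl4 (-0.34 ± 0.57), Ucp2 (-0.09 ± 0.09) and Txnip (-0.27 ± 0.12) did not pass (edgeR adjusted p = 0.757, 0.586 and 0.148).

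The genes whose profile over the 6 libraries lay nearest to that of Pparg were named by the root mean square difference of log2(CPM + 0.5) after centring each gene on its own mean. Among the 5 nearest were Sapcd2 (0.126), Cdc25c (0.169), Fam81a (0.194) and Cdca5 (0.207). These were higher in liver (edgeR), with spleen 1 above spleen 2 and spleen 3. Sapcd2, for instance, was at 26.5, 30.1 and 34.5 CPM in liver, compared with 25.8, 9.08 and 6.58 CPM in spleen. In the order named, the log2 fold changes were 1.60, 1.36, 1.25 and 1.38. Fam81a lost its call in 5 of 14 other settings and Cdc25c in 2 of 15, for both also without spleen 3. Sapcd2 did not pass with DESeq2 (DESeq2 adjusted p = 0.161), and Cdca5 kept its call in all 15. For Acsl4, which did not differ past the test, the nearest were Dnajc10 (0.0270), Rad17 (0.0279), Timmdc1 (0.0359), Gnl3l (0.0370) and Adnp2 (0.0417), with log2 fold changes between -0.02 and 0.04. The libraries of a tissue share that tissue, and spleen 1 its depth, in these likenesses, which are given as a description.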

How the data were processed

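RNA was sequenced from sorted CD4+GFP+ Treg cells in 3 liver and 3 spleen libraries. The authors deposited raw read counts per gene symbol, made with HISAT2 2.1 and HTSeq 0.11 on mm9, as listed in the submitters' processing notes; neither annotation nor strand setting is given in the sources used here. The 5 HTSeq summary rows, 25.5% to 29.0% of each library's total, were left out.

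Counts were filtered with filterByExpr, scaled by TMM and tested in R 4.3.3 with edgeR 4.0.16 (quasi-likelihood F test, liver minus spleen, Benjamini-Hochberg over all tested genes, threshold 0.05). Levels are CPM on TMM-scaled totals, and SEs come from the F statistic. Libraries are numbered in accession order, which by itself pairs none; same-numbered libraries of the tissues do match in Xist and Ddx3y, and whether they share animals or pools is not stated in the labels. The 10 genes and the lists were chosen with earlier results of these data known. From each list the 3 other genes with the smallest p, and calls where there were 5 or fewer, are named, except some that are not reported here. Older symbols and promoter sequences came from RefSeq tables of GRCm38.p6; exon lengths came from GENCODE M21. These are of a later build than the counts. Intervals and floors cover counting error only.

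On simulated counts for liver against spleen (11603 genes), edgeR recovered 25 of 66 genes set to a 1.5-fold change. It recovered 54 of 65 set to 2-fold and 65 of 65 set to 4-fold, and 4 of 148 calls were false. The simulation gave all genes the same spread between libraries (coefficient of variation 0.13 beyond counting error) and no deviating library. These rates need not hold for genes such as Pparg and Plin2, where spleen 1 stood apart. Other settings used DESeq2 1.42.0 and limma 3.58.1.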

Additional observations from a re-analysis of the deposited data

How the results depend on the processing

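Over 15 other settings, Dgat1 and Acadl stayed higher in liver and past the threshold in each, Pparg lost its call in 2, Plin2 in 2 and Acsl5 in 8, and none of these 5 changed direction. With libraries thinned to equal depth the numbers higher in liver were 664 of all genes, 3 of the 10 genes and 3 of the other pathway genes, and 436 of all genes were higher in spleen. Limma-voom with quality weights gave 1243 higher in spleen. With a library left out, 722 to 1245 genes were higher in liver and 486 to 989 in spleen, 2 to 5 of the 10 genes were higher in liver, and the other pathway genes counted 2 to 8 and 4 to 9.

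Genes near 0 changed sign without passing. Acsl4 had -0.0063 with DESeq2 size factors, -0.045 with upper-quartile scaling, -0.0010 with DESeq2, -0.029 with limma-voom, -0.0045 with the 5 CPM filter, -0.0002 without marker genes and -0.0091 with the block on sex-linked transcripts. With upper-quartile scaling Dnajc10 had -0.035, Rad17 -0.015 and Timmdc1 -0.0047, and with limma-voom Dnajc10 had -0.029. Adnp2 had 0.0034 without a filter. At equal depth Dgat2 had 0.11, Dnajc10 -0.14, Rad17 -0.20 and Adnp2 0.070. With a library left out, Acsl4 ran from -0.054 to 0.071, Fabp5 from -0.39 to 0.013, Dgat2 from -0.19 to 0.044, Acadm from -0.16 to 0.026, Dnajc10 from -0.045 to 0.10, Rad17 from -0.016 to 0.11, Timmdc1 from -0.0095 to 0.13, Gnl3l from -0.084 to 0.051 and Adnp2 from -0.071 to 0.080. The causes were not tested. The labels give the tissues no shared replicate numbers, so the pairing that could be fitted was the block on sex-linked transcripts, 1 liver and 1 spleen library a class, added after the data were seen. It gave 5 of the 10 genes and 1121 of all genes higher in liver, 846 higher in spleen, and 7 and 7 of the other pathway genes. Spleen 1 limits what can be said of low genes: 13 reads of Pparg and 6 of Dgat2 came from it.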
